A study of Mus musculus with 6 samples.

Results

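A set of 10 genes of the brain and spinal cord matrix were followed across every probe set that the platform annotation assigns to them. They were listed by name as a matrix family, with earlier results of these data known, and no value enters the rule: 4 lecticans (Vcan, Bcan, Ncan and Acan), 3 link proteins (Hapln1, Hapln2 and Hapln4), tenascin-R (Tnr) and the membrane proteoglycans Cspg5 and Ptprz1. The 10 genes were covered by 26 of the 45037 probe sets on the array that are not controls, and no further probe set was annotated to a member together with other genes. Of the 26, 17 passed the filter on dim signals, and each gene kept at least 1. The other 9 were dim: 7 for Vcan, 1 for Ncan and 1 for Hapln1. The values of 5 members (Acan, Cspg5, Tnr, Hapln4 and Vcan) rest on 1 tested probe set each.

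Whole spinal cords came from 6 untreated male mice aged 4 months, 3 wild type C57Bl/6 and 3 Nogo-A knockout C57Bl/6, with 1 Affymetrix Mouse 430 2.0 array for each animal. Nogo-A is a membrane protein made from the gene Rtn4 that restrains axon growth. How the knockout allele was made, and whether the animals of both genotypes were littermates, is not given in the sources used here. The cord holds grey matter, white matter, meninges and vessels together, so fewer cells of a type and less RNA per cell cannot be told apart in these values.

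Lecticans are large secreted core proteins that carry chondroitin sulfate chains. Their front end binds the sugar polymer hyaluronan, a link protein clamps that bond, and tenascin-R ties the far ends of several lecticans together. Around fast-firing interneurons and motor neurons this assembly is dense and forms the perineuronal net, while at nodes of Ranvier a related coat is built with Hapln2 and versican. Chondroitin sulfate proteoglycans, like Nogo-A, are known to hold back axon growth, and some of their effect runs through receptors that they share with it.

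No member of this matrix family passed the test of a difference between the genotypes. Of 17 tested probe sets, 0 passed the threshold of an adjusted p under 0.05 (limma, Benjamini-Hochberg over all 23525 tested probe sets), where the background is 0.00425%, a single probe set of Rtn4. At an unadjusted p under 0.05 in limma 0 of 17 were found, against 8.29% of all tested probe sets, and the methods' t-test with a fold of at least 1.2 found 0 of 17, against 4.83%. Knockout over wild type ratios ran from 0.671 in Acan to 1.17 in Hapln4, with 9 probe sets above 1 and 8 below, beside 51.4% and 48.6% of all tested probe sets. With each gene at its brightest tested probe set, 5 genes were above and 5 below, beside 55.8% and 44.2% of all tested genes, and the median log2 change was 0.0025, beside 0.028 over all 11645 tested genes. In 12 of the 17 the 95% interval lay within 1.5-fold either way, beside 52.7% of all tested probe sets. The 5 wider ones were Acan, the dimmer tested probe set of Ncan and all 3 of Hapln1, where the interval reached a 1.5-fold difference.

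**Figure D1:**
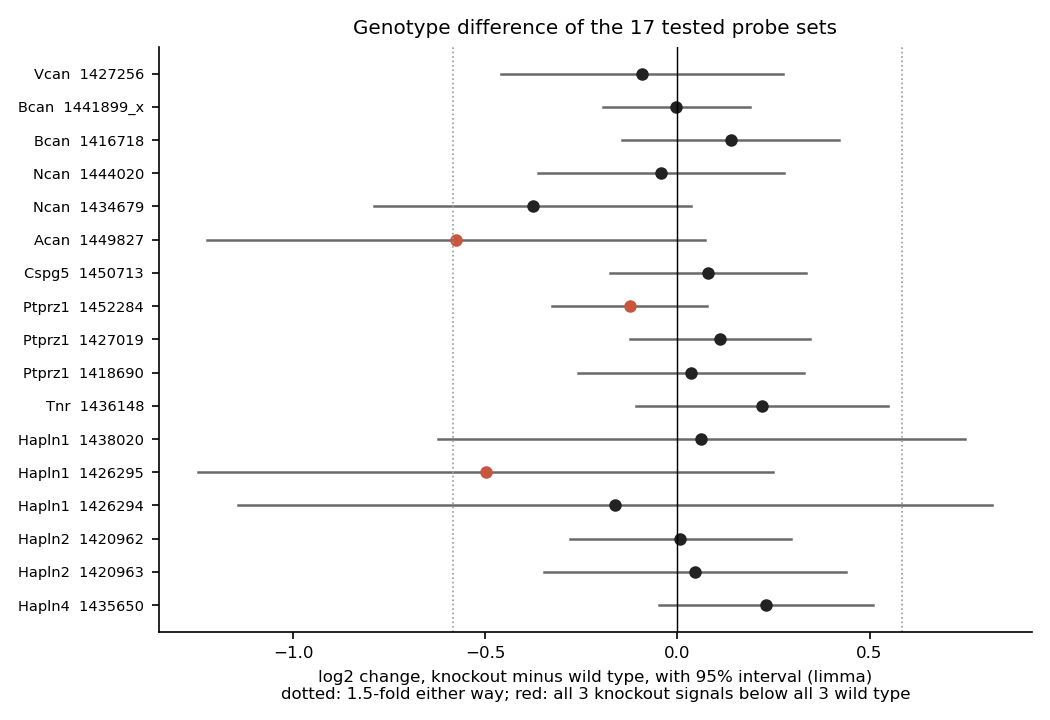
Log2 change (knockout minus wild type) of the 17 tested probe sets with its 95% interval from limma, 3 arrays a genotype. All 17 intervals include 0, and the 3 red points (Acan, 1 probe set of Ptprz1 and 1 of Hapln1) mark those whose 3 knockout signals all lay below the 3 wild type signals.

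Signals are given below as deposited, on a linear scale on which each array has the same trimmed mean. They compare the same probe set between animals and not different probe sets, since each binds its target with its own strength. The labelled genotypes were checked at Rtn4, where the probe set 1437224_at read 3560, 2790.4 and 2802 in wild type and 78.2, 9.17 and 5.08 in knockout (limma adjusted p = 0.0151). The log2 change of that probe set was -7.62, and -8.79 to -6.82 with 1 array left out. Its adjusted p was 0.166 without wild type replicate 2, 0.127 without knockout replicate 2 and 0.533 without the intensity trend. The other 4 tested probe sets of Rtn4 were higher in knockout without overlap, by log2 changes of 0.40, 0.56, 0.46 and 0.70 (limma adjusted p = 0.538 to 0.591). Arrays differed in their dim signals, with a 5th percentile of 5.26, 10.5 and 19.98 on wild type replicates 1 to 3 and 4.57 to 4.92 in knockout. Wild type replicate 3 had the lowest mean correlation with the other arrays, 0.930 against 0.951 to 0.961. Skeletal muscle genes (5 tested) summed to 934, 1848 and 5343 in wild type and to 1589, 10674 and 1348 in knockout, highest in knockout replicate 2 and wild type replicate 3, the muscle-rich arrays below.

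**Figure D2:**
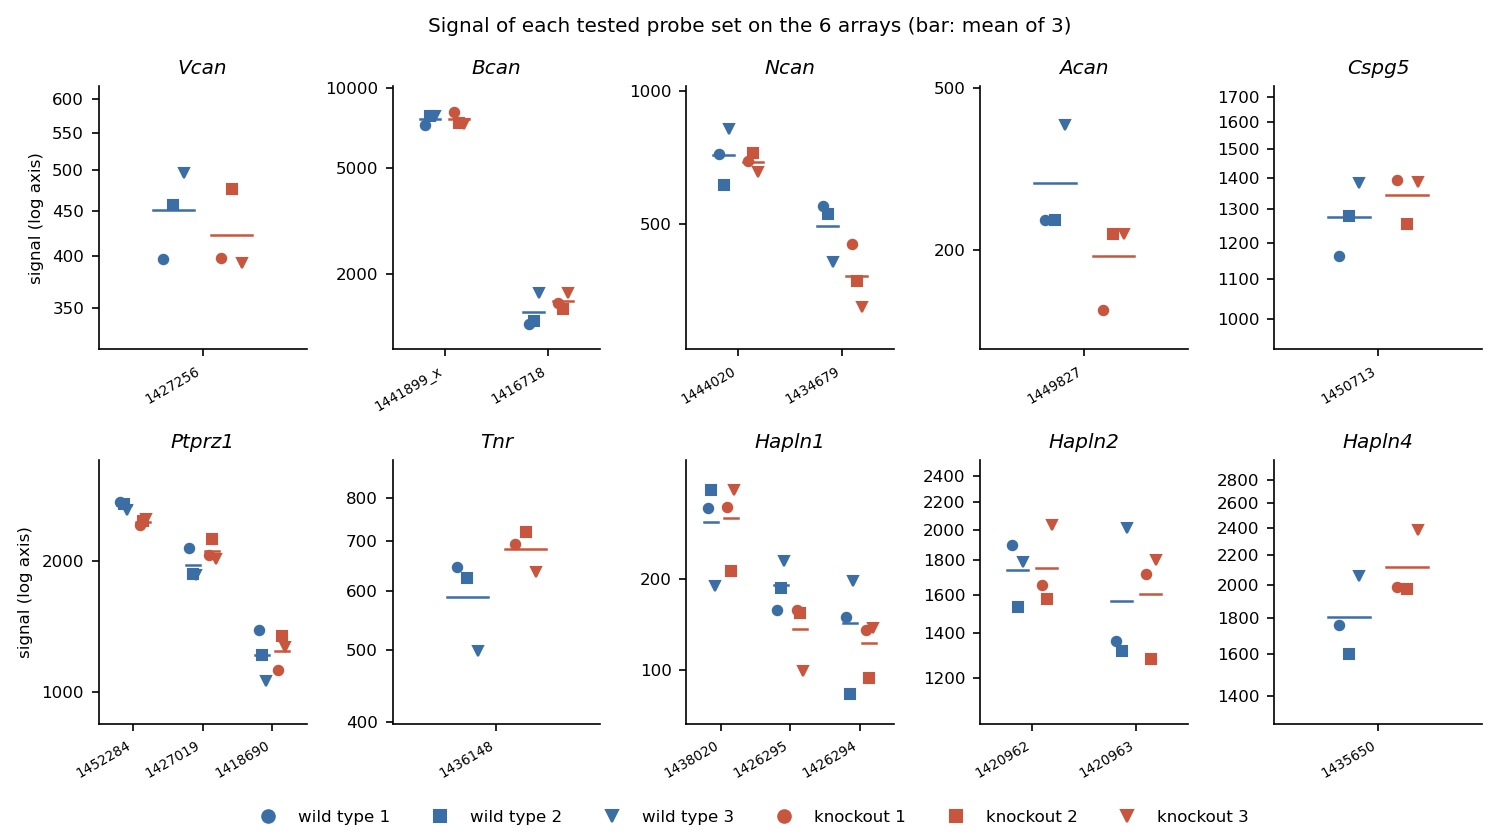
Deposited signal (log axis) of the 17 tested probe sets on each array, by gene, with wild type in blue, knockout in red, symbols for replicate numbers and bars for means of 3. Genotypes overlap in 14 of the 17, as in Bcan 1441899_x_at with 7258 to 7845 in wild type and 7338 to 8137 in knockout.

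Acan encodes aggrecan, the lectican that dominates the perineuronal net and also the main proteoglycan of cartilage. Its single probe set, 1449827_at, read 237, 237 and 405 in wild type and 143, 219 and 219.6 in knockout. All 3 knockout animals were below all 3 wild type animals, though the nearest values of the genotypes were 219.6 and 237 and the highest came from wild type replicate 3. The means were 293 ± 97.1 in wild type against 194 ± 44.3 in knockout (SD, n = 3 each), a ratio of 0.671 with a 95% interval of 0.428 to 1.05 (limma adjusted p = 0.625). Without wild type replicate 3 the log2 change was -0.32 in place of -0.58, a ratio nearer to 1. The array medians were 144 to 195.6, and wild type replicate 3 was also the highest array in median and in dim signals, whose part in the result was not tested. Of 9 marker genes of cartilage, 8 did not pass the filter, with signals of 2.83 to 259, and the cartilage collagen Col2a1 read at most 92.8 on any array. The ninth, Col11a1, which is not limited to cartilage, read 607 to 712 in wild type and 656 to 723 in knockout.

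Of the 17 probe sets, 3 had no overlap with knockout lower, where the background is 6.62%, and 0 had none with knockout higher, where it is 7.85%. Besides Acan these were 1452284_at of Ptprz1 and 1426295_at of Hapln1. Their limma adjusted p-values were 0.625, 0.718 and 0.696.

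Ncan encodes neurocan, a lectican of the nervous system that is abundant during development and cut into fragments in the adult. Its 2 tested probe sets did not give the same picture. The brighter, 1444020_at, read 718, 612 and 822 in wild type and 695, 726 and 655 in knockout, so that the knockout values lay inside the wild type range. Its ratio was 0.970 with an interval of 0.777 to 1.21. The other, 1434679_at, read 549, 528 and 409 in wild type and 449.7, 371 and 325 in knockout. Its highest knockout value passed the lowest wild type value, so the genotypes overlapped, at 495 ± 75.8 against 382 ± 63.3 (SD, n = 3 each) and a ratio of 0.770 (0.579 to 1.02). This was the smallest p among the members (limma adjusted p = 0.617). Without wild type replicate 3 its log2 change was -0.51 in place of -0.38 (limma adjusted p = 0.329). The third probe set, 1423604_at, stayed under the filter at 74.2 to 173.

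Bcan encodes brevican, the lectican most abundant in adult nervous tissue, made by astrocytes and other glia. The brighter of its probe sets, 1441899_x_at, read 7258, 7845 and 7823 in wild type and 8137, 7415 and 7338 in knockout. Means of 7642 ± 333 and 7630.1 ± 441 (SD, n = 3 each) gave a ratio of 0.998 with the narrowest interval of all members, 0.874 to 1.14 (limma adjusted p = 0.996). The dimmer, 1416718_at, read 1301, 1330.5 and 1688 in wild type and 1548, 1481 and 1701 in knockout. Here wild type replicates 1 and 2 were the lowest of the 6 animals and wild type replicate 3 was near the top, which left the genotypes overlapping at a ratio of 1.10 (0.905 to 1.34). Its log2 change was 0.14, and 0.26 without wild type replicate 3 or 0.30 without both muscle-rich arrays. Astrocyte markers gave little difference beside it: 7 of 7 genes were tested, 5 above and 2 below no change, with summed signals of 50746 to 56362 in wild type and 54860 to 56116 in knockout.

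Vcan encodes versican, a lectican of oligodendrocyte precursors, of nodes of Ranvier and of connective tissue. Only 1427256_at passed the filter, with 397, 457 and 496 in wild type and 398, 476 and 393 in knockout. Knockout values spanned most of the wild type range, and the ratio was 0.938 (0.728 to 1.21, limma adjusted p = 0.899). Its log2 change of -0.092 ranged from -0.18 without knockout replicate 2 to -0.018 without wild type replicate 3. The 7 other probe sets read between 0.923 and 219.8 across all arrays and give no measure of a difference. Versican is spliced into forms with different numbers of chain-bearing segments, and which form a probe set covers is not given. Of 6 oligodendrocyte precursor markers, all 6 were tested and above no change, with a median log2 change of 0.23. Their summed signals overlapped, at 3390 to 3926 in wild type and 3900 to 4256 in knockout. Over all tested genes 55.8% were above no change. The part of these markers in the Vcan and Ptprz1 values was not tested.

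Among the link proteins, Hapln4, a link protein of perineuronal nets, had the highest ratio of the family. Its probe set 1435650_at read 1756, 1600.3 and 2059.7 in wild type and 1984, 1975 and 2389 in knockout. The highest knockout animal passed all others, but wild type replicate 3 lay above the other 2 knockout animals. Means were 1805 ± 234 and 2116 ± 236 (SD, n = 3 each), a ratio of 1.17 with an interval of 0.968 to 1.42 (limma adjusted p = 0.647). Without wild type replicate 3 the log2 change was 0.33 in place of 0.23 (limma adjusted p = 0.336), and without knockout replicate 3, the highest animal, it was 0.14.

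Hapln2 encodes the link protein of nodes of Ranvier, made by oligodendrocytes. Its 2 probe sets both gave ratios close to 1. The brighter, 1420962_at, read 1899, 1533 and 1792 in wild type and 1656, 1578 and 2030.5 in knockout, a ratio of 1.01 (0.824 to 1.23). The other, 1420963_at, read 1365, 1319 and 2012 in wild type and 1717, 1285 and 1803 in knockout, a ratio of 1.03 (0.785 to 1.35). Wild type replicate 3 and knockout replicate 2, the arrays with the most muscle signal, were the highest and the lowest of the 6 in this probe set. With both left out its log2 change was 0.39 in place of 0.045 (limma adjusted p = 0.223), while that of the brighter probe set was 0.10 in place of 0.0079. Summed signals of 7 oligodendrocyte markers were 106564 to 110511 in wild type and 121946 to 134973 in knockout, without overlap, with 5 of 7 above no change and 0 of 7 past the adjusted threshold. Their part in the Hapln2 values was not tested.

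Hapln1, a link protein of cartilage and of perineuronal nets, had the widest intervals of the members. Its brightest probe set, 1438020_at, read 341, 392 and 189.5 in wild type and 346, 211 and 394 in knockout. The lowest value came from wild type replicate 3 and the next from knockout replicate 2, and the interval ran from 0.649 to 1.68 around a ratio of 1.04. The second, 1426295_at, had wild type signals of 158, 187 and 229 and knockout signals of 157, 154 and 99.3. These did not overlap, but wild type replicate 1 and knockout replicate 1 differed by less than 1 signal unit, at 157.9 and 157.1, and the ratio was 0.708 (0.421 to 1.19, limma adjusted p = 0.696). The lowest value came from knockout replicate 3, without which the log2 change was -0.28 in place of -0.50. The third, 1426294_at, ranged from 82.9 to 197 in wild type and from 93.8 to 137 in knockout, and the fourth did not pass the filter. The order of the animals differed between these probe sets, so they give no shared direction.

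Tnr encodes tenascin-R, made by oligodendrocytes and some neurons, which crosslinks lecticans in the net. Its probe set 1436148_at read 646, 626 and 498 in wild type and 694, 719.8 and 637 in knockout. The lowest knockout value, 637, lay under the highest wild type value, 646, so there was overlap by a narrow margin. Means of 590.1 ± 80.3 and 684 ± 42.6 (SD, n = 3 each) gave a ratio of 1.16 with an interval of 0.928 to 1.46 (limma adjusted p = 0.696). The lowest of the 6 values was that of wild type replicate 3, and the log2 change of 0.22 became 0.10 without that array and 0.064 without both muscle-rich arrays.

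Ptprz1 encodes a receptor phosphatase of astrocytes and oligodendrocyte precursors whose secreted splice form is the proteoglycan phosphacan. Its brightest probe set, 1452284_at, had replicates close together, with 2726, 2704 and 2615 in wild type and 2415, 2475 and 2490.5 in knockout. All 3 knockout animals were lower, by a ratio of 0.918 (0.798 to 1.05, limma adjusted p = 0.718). It was the 1 of 17 under 0.05 in the methods' t-test without a fold threshold, where the background is 7.15%, and it did not pass there after Benjamini-Hochberg adjustment. The other probe sets did not follow. In 1427019_at wild type read 2141, 1868 and 1851 and knockout 2059.9, 2240.3 and 2018, a ratio of 1.08 (0.918 to 1.27), and its log2 change of 0.11 became 0.073 without wild type replicate 3 and 0.028 without both muscle-rich arrays. In 1418690_at the ratio was 1.02 (0.836 to 1.26), with 1056 to 1383 in wild type and 1119.6 to 1345 in knockout. Within each array, the log2 ratio of 1452284_at over 1427019_at was 0.35, 0.53 and 0.50 in wild type and 0.23, 0.14 and 0.30 in knockout. These did not overlap, a difference of -0.23 (exact permutation test, two-sided p = 0.1, the smallest that 3 against 3 allows, and 0.6 after Benjamini-Hochberg over the 18 ratios computed). Which splice form each probe set covers is not given in the sources used here.

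Cspg5 encodes neuroglycan C, a membrane proteoglycan of nervous tissue. Its probe set 1450713_at read 1163, 1279 and 1383 in wild type and 1395, 1255 and 1387 in knockout. The ratio of 1.06 had an interval of 0.886 to 1.26, and the knockout values lay in or just above the wild type range. Its log2 change of 0.080 ranged from 0.015 to 0.14 with 1 array left out and was 0.19 without both muscle-rich arrays.

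Each of the 4 lecticans sits next to a link protein gene in the genome, with no other protein-coding gene between them in the RefSeq table of assembly GRCm38.p6: Acan beside Hapln3, Bcan beside Hapln2, Ncan beside Hapln4 and Vcan beside Hapln1. Hapln3 is not a member and did not pass the filter. It read 129, 107 and 135 in wild type and 68.3, 60.5 and 91.7 in knockout, lower in all 3 knockout animals. With no filter, so that dim probe sets count too, the median log2 change of all 45037 probe sets was -0.093. Of these, 1178 were higher and 2488 lower at an unadjusted limma p under 0.05. The share of dim probe sets without overlap was not computed. Because the dim signals differed between genotypes, no fold is given for Hapln3. Of 9 within-array log2 ratios of a lectican over its neighbour, 7 overlapped between genotypes. That of Ncan 1444020_at over Hapln4 was lower in all 3 knockout animals by 0.27, at -1.51, -1.44 and -1.87 against -1.29, -1.39 and -1.33. With the other Ncan probe set the wild type and knockout ratios overlapped. That of Vcan over Hapln1 1426295_at was higher in all 3 knockout animals by 0.41, and with the other Hapln1 probe sets the genotypes overlapped. Both had an exact permutation p of 0.1 and 0.6 after adjustment over the 18 ratios, which were chosen after the values were seen. The ratios reuse the same probe sets and are not independent, and no background share of such ratios was computed.

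**Figure D3:**
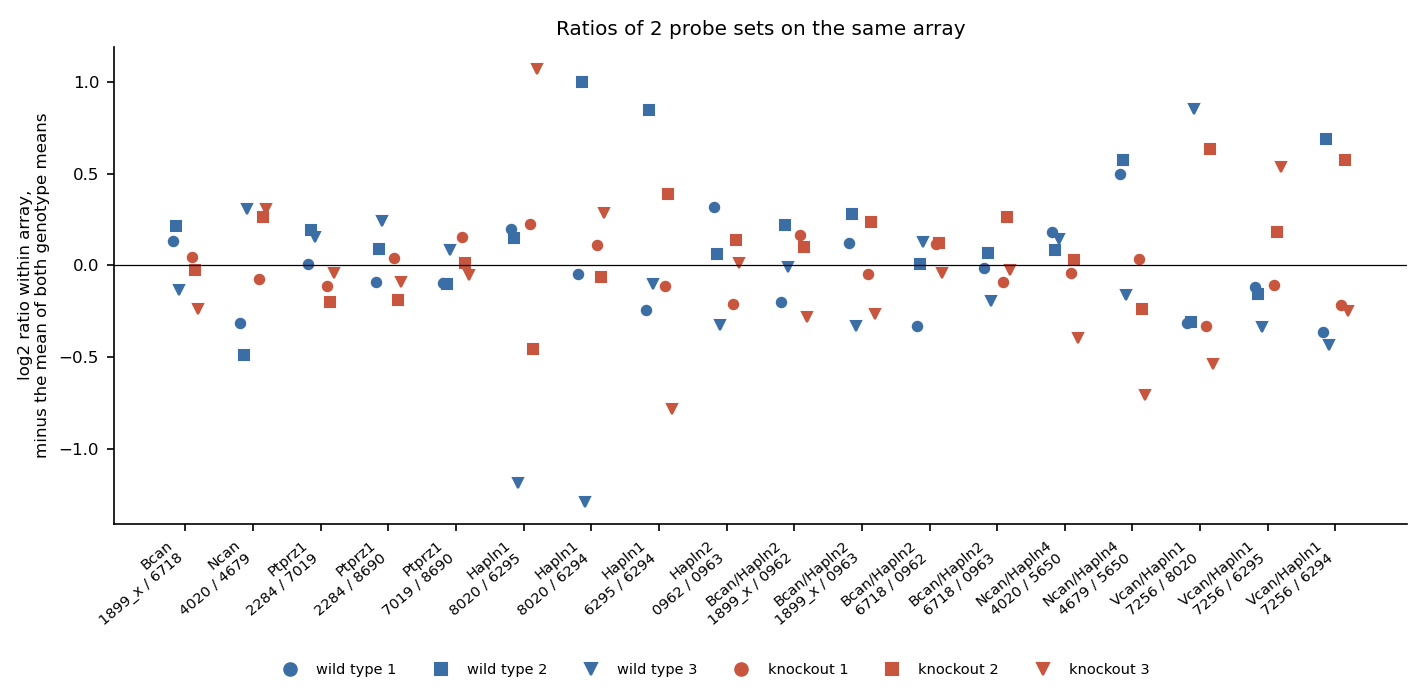
Log2 ratio of 2 probe sets on the same array, centred between the genotype means, for 9 pairs within a gene and 9 pairs of a lectican over its neighbouring link protein. Labels give the last characters of each probe set, symbols the replicate numbers, and 3 of 18 pairs separate the genotypes (Ptprz1 2284 over 7019, Ncan over Hapln4 with 4020, and Vcan over Hapln1 with 6295). Pairs share probe sets, and the share over other pairs of the array was not computed.

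RefSeq promoter entries of build GRCm38.p6 were found for 8 of the 10 members, and Cspg5 and Hapln4 had none. Over the 250 bases before the start, GC content ran from 46.8% in Tnr to 74.4% in Acan, beside a median of 52.4% over all 32851 entries. The sequences of Acan and Hapln2 are printed to show the span of CpG counts among the members: Acan had the most CpG dinucleotides and Hapln2 was among those with the fewest. In GC content Hapln2 was not at the low end, at 52.4%. The strand is plus for Acan (chr7:79052976-79053225) and minus for Hapln2 (chr3:88027512-88027761). Capitals mark a match to ACAAAG or ACAATG, letters of the kind that SOX factors bind, or to TATAAA, on either strand.
Acan: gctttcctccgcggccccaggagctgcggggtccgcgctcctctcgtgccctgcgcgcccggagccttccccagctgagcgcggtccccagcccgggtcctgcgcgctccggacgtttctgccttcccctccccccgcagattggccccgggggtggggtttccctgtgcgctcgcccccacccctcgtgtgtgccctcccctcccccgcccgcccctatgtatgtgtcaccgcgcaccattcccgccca
Hapln2: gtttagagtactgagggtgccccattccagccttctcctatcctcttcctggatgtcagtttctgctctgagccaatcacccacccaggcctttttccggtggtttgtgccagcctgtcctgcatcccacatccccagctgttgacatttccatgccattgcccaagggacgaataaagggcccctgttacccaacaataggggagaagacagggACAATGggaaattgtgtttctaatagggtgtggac

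Acan holds 26 CpG dinucleotides in this window and Hapln2 holds 2, beside a median of 6 over all entries. A match to ACAATG was found in Hapln2, to ACAAAG in Tnr and to TATAAA in Ncan, 1 of 8 members each, and in 10.7%, 16.5% and 12.4% of all entries. A match is a run of letters and not a measured site.

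Other genes that make, cut, bind or accompany this matrix were counted in 6 lists, each gene at its brightest tested probe set. None of the 84 tested genes passed an adjusted p under 0.05 in limma, where the background over tested genes at their brightest probe set is 0%. An unadjusted limma p below 0.05 was reached by 10 genes with more signal in knockout and 2 with less, beside 4.93% and 3.24% of all tested genes. The genes named below had the smallest limma p of their list and are given as values that did not pass. Because they were picked by p, a lack of overlap among them follows in part from that choice. Over all tested genes, 9.05% had no overlap with knockout higher and 5.37% with knockout lower. In the order of the lists below, 4, 1, 1, 3, 1 and 0 genes had none with knockout higher, and 2, 0, 2, 0, 1 and 0 with knockout lower.

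Of 25 other proteoglycans, tenascins and the remaining link protein, 21 were tested, 12 above and 9 below no change with a median log2 change of 0.14. Lum, which encodes the collagen-binding keratan sulfate proteoglycan lumican, read 564, 540.1 and 547 in wild type and 339, 429 and 432 in knockout, a ratio of 0.723 (0.567 to 0.921, limma adjusted p = 0.591). Dcn, for the related decorin, read 4602, 3462 and 3959 in wild type and 4619, 5319 and 5202 in knockout, a ratio of 1.27 (1.06 to 1.51, limma adjusted p = 0.591). Neither overlapped between genotypes, and they went opposite ways. Both are genes of meninges and connective tissue. The 5 tested markers of that tissue, these 2 included, had summed signals of 6348 to 8187 in wild type and 9357 to 10444 in knockout. Dcn itself is a large part of that sum. Of the 5 markers, 4 were above no change and 1, Lum, was below, and 0 passed the adjusted threshold. The part of the difference in summed signal was not tested.

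Hyaluronan is the backbone to which lecticans and link proteins bind. Of 12 genes for its synthesis, breakdown and binding, 5 were tested and their median log2 change was -0.012. Cd44, a hyaluronan receptor of the cell surface, read 412, 539 and 443 in wild type and 581, 592 and 650.3 in knockout, with no overlap and a ratio of 1.31 (1.04 to 1.67, limma adjusted p = 0.594). Tnfaip6, which binds hyaluronan in inflammation, had a ratio of 0.795 (0.580 to 1.09) with overlap. Its log2 change of -0.33 was -0.56 without wild type replicate 3 and -0.13 without wild type replicate 2.

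Chondroitin sulfate chains are built by a series of Golgi enzymes that start, extend and sulfate the chain. Of 24 genes, 17 were tested, 11 above and 6 below no change, with a median log2 change of 0.099. Ust, which adds sulfate to uronic acid in the chain, read 481, 557 and 883 in wild type and 430.4, 284 and 376 in knockout, a ratio of 0.579 (0.403 to 0.833, limma adjusted p = 0.591). Its highest signal was again on wild type replicate 3, and the log2 change of -0.79 became -0.53 without that array (limma adjusted p = 0.353) and -0.36 without both muscle-rich arrays (limma adjusted p = 0.428). Papss1, which makes the sulfate donor, read 2616, 2565 and 2467 in wild type and 2998, 2791 and 3105 in knockout, a ratio of 1.16 (1.01 to 1.34).

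Among 25 receptors and binding partners, 20 were tested, 14 above and 6 below no change, with a median log2 change of 0.075. Ptprs, the receptor phosphatase that binds chondroitin sulfate chains on growth cones, read 3518, 3164 and 3452 in wild type and 3935, 4081 and 4376 in knockout. The genotypes did not overlap, and the ratio was 1.22 (1.06 to 1.41, limma adjusted p = 0.591). L1cam, an axonal adhesion molecule that neurocan binds, had 2092 ± 138 and 2553 ± 257 (SD, n = 3 each) and a ratio of 1.22 (1.03 to 1.44), also without overlap. Summed signals of 8 neuronal markers were 84049 to 103728 in wild type and 101118 to 104865 in knockout, lowest on wild type replicate 3. All 8 were above no change, beside 55.8% of all tested genes, with a median log2 change of 0.16. In 4 of 8 the knockout was higher without overlap, beside 9.05% of all tested genes, and 0 of 8 passed the adjusted threshold. The part of these neuronal markers in the Ptprs and L1cam values was not tested.

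The proteases that trim this matrix gave 17 tested genes of 23, 13 above and 4 below no change, with a median log2 change of 0.075. Adamts5, which cuts aggrecan, read 463, 390.02 and 321 in wild type and 558, 548 and 555 in knockout, a ratio of 1.43 (1.10 to 1.85, limma adjusted p = 0.591). Adamts9, which cuts versican and aggrecan, went the other way, with 268, 318 and 266 in wild type and 219, 216 and 177 in knockout and a ratio of 0.718 (0.508 to 1.01, limma adjusted p = 0.607). Both pairs of genotypes were without overlap. Genes of neurons that carry nets gave 4 tested genes of 8, all above no change by a median of 0.10. Slc18a3, the vesicle transporter of acetylcholine, had a ratio of 1.24 (0.976 to 1.58), and Pvalb, the calcium buffer of fast-firing interneurons, had 5006 ± 128 and 5406 ± 819 (SD, n = 3 each) and a ratio of 1.07 (0.906 to 1.27), both with overlap.

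**Figure D4:**
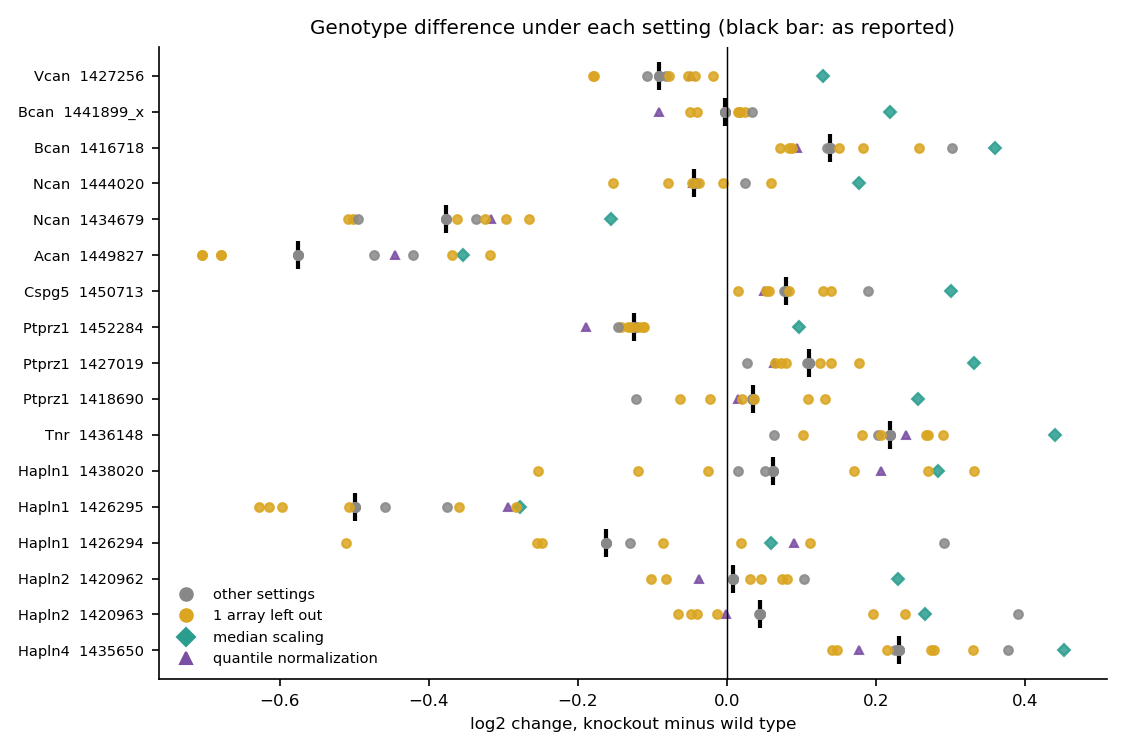
Log2 change (knockout minus wild type) of the 17 tested probe sets as reported (black bars) and under the other settings (points), including each array left out, median scaling and quantile normalization. Acan, Ncan 1434679_at and Hapln1 1426295_at stay below 0 and Hapln4, Tnr, Cspg5, Bcan 1416718_at and Ptprz1 1427019_at stay above 0 under every setting drawn. Vcan and Ptprz1 1452284_at cross 0 with median scaling alone, which moves every probe set up by 0.22, and the other 7 cross 0 under further settings.

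Dividing each array by its median, a scaling near to the per-chip step that the series' design text names, moved the median of all tested probe sets from 0.0079 to 0.23, and with it the split of probe sets at an unadjusted limma p under 0.05 from 1013 higher and 937 lower to 2799 and 263. On that scale the log2 change was 0.45 in Hapln4, 0.44 in Tnr and -0.35 in Acan. The first 2 of these lay above the shift of all probe sets while Acan lay below it. Since the scaling adds 0.22 to every log2 change, that order only restates the signs on the deposited scale.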

How the data were processed

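Whole spinal cord RNA of 3 wild type and 3 knockout mice was hybridised to 1 array each. The authors deposited MAS 5.0 signals, a linear intensity per probe set, per the labels and the submitters' processing notes, which name GCOS 1.4, MAS 5.0 and GeneSpring 7.2. On every array the mean with 2% trimmed at each end was 500, so this scaling was kept. Probe sets were named from the platform annotation, which gives 1 symbol for 34945, several for 932 and none here for 9160. A probe set was tested where it reached the 50th percentile of its array on 2 of 3 arrays of a genotype, which left 23525 of 45101, after removal of 64 controls. That filter was used in place of the filter on present calls in the series' design text. The log2 signals were fitted with limma 3.58.1 in R 4.3.3 (lmFit and eBayes with an intensity trend), with Benjamini-Hochberg adjustment over all tested probe sets and a threshold of 0.05. The fit was tested on simulated data. The methods' t-test was run on the same values.

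For gene counts, each gene is represented by whichever of its tested probe sets was brightest on average. From each other list the 2 genes with the smallest p are named. The members and lists were chosen with earlier results of these data known. Labels number the replicates alike in both genotypes, but same-numbered deviations correlated at -0.035, 0.074 and 0.11, so the numbers were not taken as pairs. Replicates are single animals per the labels, and their number limits the precision. Other settings were median scaling, quantile normalization, other filters, an offset of 50, a replicate block, no trend, leaving out each array in turn, and both muscle-rich arrays left out. Probe sequences and protein sequences were not used here.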

Additional observations from a re-analysis of the deposited data

How the results depend on the processing

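No member passed an adjusted limma p of 0.05 under any setting that tested it, but few probe sets of the whole array did. The most was 9, without wild type replicate 1. The count was 0 without the intensity trend, without wild type replicate 2 and without knockout replicate 2. On the deposited scale and with quantile normalization, 10 of 17 probe sets kept 1 direction under the settings that tested them, and 8 did so with median scaling included, which adds 0.22 to every log2 change. The 75th percentile filter did not test Acan, Vcan, Ncan 1434679_at or the 3 of Hapln1. At an unadjusted limma p under 0.05 the count of 0 became 2 with median scaling (Hapln4 and Tnr, background 13%) and 1 with quantile normalization (Ptprz1 1452284_at, 6.47%). It was 4 with both muscle-rich arrays left out (Hapln2 1420963_at, Hapln4, Ncan 1434679_at and Bcan 1416718_at, 13.1%). Leaving out 1 array gave 0 to 3, with 3 without wild type replicate 3 (Bcan 1416718_at, Ncan 1434679_at and Hapln4, 11.5%) and 1 without knockout replicate 1 (Ncan 1434679_at, 4.69%). The methods' t-test with its fold threshold gave 3 in place of 0 with median scaling (9.26%). The member genes' median log2 change was 0.22 with median scaling, -0.042 with quantile normalization and -0.036 to 0.049 with 1 array left out. That shift alone turned the sign in Vcan (0.13), Bcan 1441899_x_at (0.22), Ncan 1444020_at (0.18), Ptprz1 1452284_at (0.097) and Hapln1 1426294_at (0.060). With quantile normalization they turned in Hapln1 1426294_at (0.091), Hapln2 1420962_at (-0.038) and Hapln2 1420963_at (-0.0012). Without both muscle-rich arrays they turned in Bcan 1441899_x_at (0.034), Ncan 1444020_at (0.024), Ptprz1 1418690_at (-0.12), Hapln1 1426294_at (0.29) and Pvalb (-0.041). With 1 array left out the ranges were -0.050 to 0.024 for Bcan 1441899_x_at, -0.15 to 0.060 for Ncan 1444020_at, -0.063 to 0.13 for Ptprz1 1418690_at, -0.25 to 0.33 for Hapln1 1438020_at and -0.51 to 0.11 for Hapln1 1426294_at. They were -0.10 to 0.080 for Hapln2 1420962_at, -0.065 to 0.24 for Hapln2 1420963_at and -0.020 to 0.17 for Pvalb. The cause was not tested.

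With the replicate number as a block, 2 member probe sets had an unadjusted limma p under 0.05 (Ncan 1434679_at and Hapln4, background 9.89%), and none passed the adjusted threshold. Acan and Hapln1 had wide intervals with 3 animals a genotype, and some of their signals were near the array medians. The part of signal level in that width was not tested.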
